A study of Mus musculus with 119 samples.

Results

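Adult CD34Hi satellite cells were compared with young CD34Hi satellite cells by RNA sequencing: 3 adult and 4 young libraries, taken by their labels from the 119 samples of the series. All 7 came from experiment 2 and from wild-type (WT) mice, with no treatment and no muscle injury. Its other 8 libraries, 4 adult and 4 young, hold the cells with low surface CD34 (CD34Lo) of the same ages. The sample labels say Adult for the older group and the heading of the counts says Old, and no age in months is given for either group, so the distance between the ages is not known here. Cells were sorted as negative for CD45, Sca-1 and CD31 and positive for α7-integrin and CD34, and RNA was taken straight after the sort without culture. The labels do not state that each library is a separate mouse. The tests set each difference against the spread between the libraries fitted, which may be partly technical. In the main test these are all 15 libraries of experiment 2.

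Satellite cells are the stem cells of skeletal muscle. In resting muscle they lie between the fibre and its basal lamina in a reversible arrest called quiescence, held there by Notch, calcitonin receptor and adhesion signals, and after injury they enter the cell cycle, make myoblasts and renew their own pool. CD34 is a surface sialomucin carried by quiescent satellite cells, and Pax7, Myf5 and Myod1 are transcription factors of the satellite and myogenic lineage. The comparison asks what differs in the high-CD34 cells when the mouse passes from young to adult age.

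Total counts of the 7 libraries ran from 4.91 M to 8.91 M (M stands for mega), and every pair of libraries differed by more than counting noise. Levels below are normalised read counts relative to library size (CPM), after scaling by the trimmed mean of M-values (TMM), in the order adult replicates 1 to 3 and young replicates 1 to 4. Log2 fold changes are adult minus young, with a standard error (SE), from edgeR's quasi-likelihood test, and adjusted p-values are by the Benjamini-Hochberg method over the 12857 genes tested, with a threshold of 0.05. The defining markers of the sorted cells were present in all 7 libraries. Young replicate 1 stood apart from the other young libraries: its correlations with them reached down to 0.940, while adult pairs lay at 0.973 to 0.976. Young CD34Lo replicate 4 stood apart in its own group, and it enters the fit through the shared estimate of the spread.

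Of the 12857 genes, 13 (0.101%) were higher and 14 (0.109%) were lower in adult cells past the threshold. In all 27 the adult and young libraries did not overlap. Over all genes tested, 895 (6.96%) were higher in adult without overlap and 1038 (8.07%) lower without overlap. At an unadjusted p under 0.05 there were 363 higher and 771 lower genes, and the median log2 change of all genes tested was -0.04. The fit of all 15 libraries of experiment 2 shares one estimate of the spread. A fit of the 7 CD34Hi libraries alone called 68 higher (0.565% of 12043 genes) and 132 lower (1.1%), among them all 27, and omitting young CD34Lo replicate 4 gave 183 in all. Scaling by total count alone gave 8 higher and 13 lower genes. Omitting adult replicate 1, 2 or 3 left 7, 6 or 4 genes, and omitting young replicate 1, 2, 3 or 4 left 21, 17, 10 or 11. Of the 27, 24 lost the call in at least 1 of these 7 omissions and none changed direction. Vcam1, Col8a1, Elovl4, Bach1, Igf1, Tmem173 and 3110039I08Rik lost it in each of them.

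**Figure D1:**
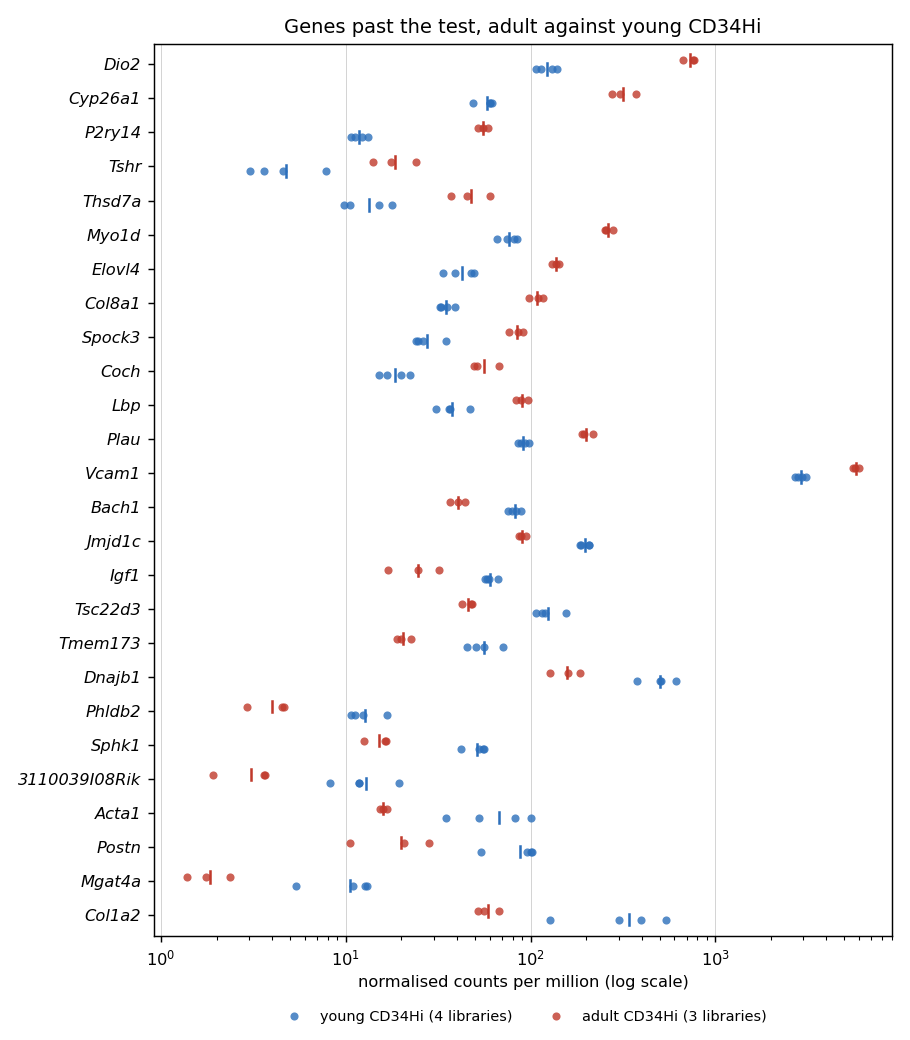
Level of genes past the test in each CD34Hi library. The horizontal axis is normalised CPM on a log scale, points are libraries and vertical bars are group means. For every gene shown the 3 adult points (red) and the 4 young points (blue) do not overlap, and Cyp26a1 and Dio2 show the widest gaps among the higher genes.

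The promoters of 3 genes are shown because they belong to the genes with the clearest rise or fall and hold a short motif of a regulator tied to the gene's biology. Promoter windows of 300 bases (250 before and 50 after the annotated start) were taken from RefSeq on GRCm38.p6 and matched 19 of the 27 genes by symbol. Each is written 5′ to 3′ on the gene's own strand, with the motif in capitals. The Cyp26a1 window, chr19:37697558-37697857 on the plus strand, holds 2 half-sites of the retinoic acid receptor (AGTTCA or AGGTCA, read on either strand) 5 bases apart, at its bases 219 to 235. The Dio2 window, chr12:90738989-90739288 on the minus strand, holds the cyclic AMP response element TGACGTCA. This window lies wholly before the span of the gene in GENCODE M21, 90724552 to 90738438, so the annotations differ in the start. Sphk1 has several RefSeq starts, and the window shown, chr11:116531587-116531886 on the plus strand, lies inside the annotated span of the gene. It holds the AP-1 motif TGANTCA, in capitals, and the RBPJ motif GTGGGAA at bases 36 to 42, left in lower case.
Cyp26a1: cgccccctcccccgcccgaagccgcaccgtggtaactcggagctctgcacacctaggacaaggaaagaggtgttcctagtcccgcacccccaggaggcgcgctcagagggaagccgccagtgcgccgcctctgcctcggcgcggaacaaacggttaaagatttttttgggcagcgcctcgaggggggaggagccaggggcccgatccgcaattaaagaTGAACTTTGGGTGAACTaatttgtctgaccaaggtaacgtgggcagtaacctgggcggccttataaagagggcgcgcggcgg
Dio2: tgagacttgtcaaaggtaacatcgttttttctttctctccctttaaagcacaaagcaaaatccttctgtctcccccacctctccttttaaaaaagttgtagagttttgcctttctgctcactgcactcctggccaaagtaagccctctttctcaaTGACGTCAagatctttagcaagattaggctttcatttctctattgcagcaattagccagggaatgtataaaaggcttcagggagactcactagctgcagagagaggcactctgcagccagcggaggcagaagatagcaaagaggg
Sphk1: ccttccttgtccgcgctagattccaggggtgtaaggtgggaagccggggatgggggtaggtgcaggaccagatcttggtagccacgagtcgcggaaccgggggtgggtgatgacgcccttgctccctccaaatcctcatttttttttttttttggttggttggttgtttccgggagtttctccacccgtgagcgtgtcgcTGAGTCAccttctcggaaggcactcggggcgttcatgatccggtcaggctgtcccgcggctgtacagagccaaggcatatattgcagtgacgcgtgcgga

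The half-site pair stood in the windows of 3 of 9752 tested genes with a window (0.0308%). The cyclic AMP response element stood in 349 of them (3.58%) and the AP-1 motif in 612 (6.28%). The FoxO motif GTAAACA was found in 303 (3.11%), the RBPJ motif GTGGGAA in 710 (7.28%) and the E-box CAGCTG in 1769 (18.1%). All were searched on both strands, and none of these strings of letters holds another. Among the 8 higher genes with a window, 1 each held the half-site pair (Cyp26a1), the cyclic AMP response element (Dio2), the AP-1 and the FoxO motif (both in P2ry14) and the RBPJ motif (Elovl4), and 2 held the E-box. Among the 11 lower genes with a window, 3 held the AP-1 motif (Igf1, Mgat4a and Sphk1), 3 the E-box and 1 the RBPJ motif (Sphk1), each in at least 1 window. Counts of this size describe these windows and say nothing of binding. The search for the half-site pair was added after the values were seen.

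Cyp26a1 had the smallest p of all genes tested. It encodes the cytochrome P450 that clears retinoic acid, and the gene lies on chromosome 19 at 37697798 to 37701536 on the plus strand (mm10). It stood at 372, 303 and 276 CPM in the adult libraries and at 60.2, 60.5, 62.0 and 48.9 CPM in the young libraries. Every adult library was more than 4 times as high as every young one. The log2 change was 2.45 ± 0.21 (SE, edgeR adjusted p = 1.96e-05). The call held in each of the 7 omissions of 1 CD34Hi library, with adjusted p up to 0.000321.

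A group of 20 genes of the retinoic acid pathway was chosen after the values were seen. Of its 17 tested members, Cyp26a1 alone passed the test and the median log2 change was -0.22. Among the receptors, Rara, the alpha receptor, was at 14.4 to 17.2 CPM in adult and 13.5 to 26.7 CPM in young libraries, and Rarg, the gamma receptor, at 9.37 to 12.2 and 7.46 to 15.6 CPM. Rarb, the beta receptor and itself a retinoic acid target, lay at 3.18 to 6.84 CPM and 3.38 to 11.4 CPM. Aldh1a1, which makes retinoic acid from retinal, was at 67.6 to 78.2 CPM and 47.8 to 79.2 CPM. Aldh1a2, another enzyme of that step, was at 5.98 to 19.1 against 9.99 to 25.9 CPM (-0.81 ± 0.41, edgeR adjusted p = 0.605). Crabp2, which carries retinoic acid to the nucleus, was at 5.83, 4.60 and 4.49 CPM in adult and 11.9, 13.4, 11 and 8.19 CPM in young libraries. Its groups did not overlap, but it missed the threshold (log2 change -1.15 ± 0.55, edgeR adjusted p = 0.563).

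Dio2 had the widest rise among the genes past the test. It encodes type 2 deiodinase, which turns the thyroid prohormone T4 into active T3 inside the cell. The gene lies on chromosome 12 at 90724552 to 90738438 on the minus strand. Adult libraries held 672, 761 and 770 CPM and young libraries 140, 114, 131 and 107 CPM. The log2 change was 2.58 ± 0.30 (SE, edgeR adjusted p = 0.000995). The call held in all 7 omissions, with adjusted p up to 0.0118.

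Tshr, the receptor for thyroid-stimulating hormone, rose as well, at a far lower read count. It was at 14, 17.5 and 23.9 CPM in adult and 3.03, 7.84, 4.57 and 3.62 CPM in young libraries (log2 change 1.94 ± 0.38, edgeR adjusted p = 0.0405). Dio2 and Tshr were the 2 genes past the test among 11 tested of a thyroid hormone group of 14, also chosen after the values were seen, whose median was -0.15. The nuclear receptor Thra was at 7.05 to 8.89 CPM in adult and 7.05 to 9.99 CPM in young libraries, so the groups covered the same range. Klf9, a known thyroid hormone target, was at 44.4, 61.3 and 55.8 CPM in adult and 156, 96.2, 97.0 and 60.6 CPM in young libraries, below the call (log2 change -0.93 ± 0.35, adjusted p = 0.429, edgeR).

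Another 3 of the 13 higher genes act at the cell surface or inside the cell. Vcam1, the adhesion receptor on the surface of satellite cells that binds α4β1-integrin, was the most abundant gene past the test. It stood at 5592, 5675 and 5990 CPM in adult and at 2717, 2818, 2945 and 3101 CPM in young libraries, a 1.99-fold rise (log2 change 0.99 ± 0.18, edgeR adjusted p = 0.0355). The call was lost in each of the 7 omissions, with adjusted p up to 0.19. P2ry14, a receptor for UDP-sugars, was at 51.7, 55.1 and 58.8 CPM against 13.1, 11.2, 12.2 and 10.7 CPM (log2 change 2.22 ± 0.33, edgeR adjusted p = 0.00814). Myo1d, an unconventional class I myosin, was at 256, 254 and 280 CPM against 66.0, 84.2, 74.7 and 81.7 CPM (log2 change 1.78 ± 0.23, edgeR adjusted p = 0.00202). With Cyp26a1 and Dio2, Myo1d made up the 3 genes that passed in all 7 omissions.

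Another 7 of the higher genes are described here. Plau, urokinase, which activates plasminogen outside the cell, was at 190, 217 and 195 CPM in adult and 88.9, 85.7, 98.5 and 93.3 CPM in young libraries (log2 change 1.13 ± 0.17, edgeR adjusted p = 0.00814). The related tissue activator Plat was at 534, 505 and 526 CPM against 319, 342, 329 and 342 CPM, without overlap but short of the threshold (adjusted p = 0.108, edgeR). The urokinase receptor Plaur lay at 256 to 289 and 279 to 383 CPM. Plau was the 1 gene past the test among the 6 tested of this plasminogen group of 8, which was chosen after the values were seen.

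Spock3, a testican proteoglycan, had a log2 change of 1.62 ± 0.25 (76.5, 85.6 and 91.5 against 23.9, 24.7, 34.8 and 26.3 CPM). Col8a1, a short-chain network collagen, changed by 1.63 ± 0.28 (110, 98.1 and 117 against 32.5, 35.1, 32.9 and 39.2 CPM). Lbp, the lipopolysaccharide-binding protein, changed by 1.25 ± 0.23 (88.9, 97.3 and 83.1 against 36.3, 46.9, 36.6 and 30.9 CPM). In each of these the lowest adult library was well above the highest young one. Coch, a secreted matrix protein best known from the inner ear, changed by 1.60 ± 0.27, and Thsd7a, a membrane protein with thrombospondin repeats, by 1.85 ± 0.33. Elovl4, which lengthens very long chain fatty acids, changed by 1.69 ± 0.32. The edgeR adjusted p-values of these 6 genes ran from 0.0084 to 0.0401.

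Of 12 identity markers tested, 1 (Vcam1) rose, none fell, and the median log2 change was 0.06 against -0.04 over all genes. Pax7 was at 36.2, 29.2 and 23.7 CPM in adult and 17.4, 17.3, 28.7 and 9.33 CPM in young libraries. The groups overlapped through young replicate 3, and the change of 0.70 ± 0.31 missed the threshold (edgeR adjusted p = 0.52). Cd34 itself was at 308, 273 and 265 CPM against 200, 257, 211 and 252 CPM, higher in all 3 adult libraries but not past the test (0.30 ± 0.17, adjusted p = 0.7, edgeR). Myod1 (2062 to 2770 against 2116 to 2688 CPM) and Myf5 (352 to 531 against 330 to 596 CPM) covered the same range at both ages, and their small log2 changes of 0.03 and 0.01 turned sign with the scaling.

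Of 32 tested genes tied to the maintenance of quiescence, Vcam1 passed the test, and the median was -0.05. Without overlap 3 were higher and 4 lower, beside 6.96% and 8.07% of all genes tested. Calcr, the calcitonin receptor, was at 153, 100 and 132 CPM in adult and 168, 238, 196 and 251 CPM in young libraries. The groups did not overlap and the change of -0.73 ± 0.30 missed the threshold (edgeR adjusted p = 0.477). Spry1, an inhibitor of fibroblast growth factor signalling, was at 341 to 402 against 238 to 336 CPM (0.32 ± 0.23, adjusted p = 0.811, edgeR). Cdkn1b, which encodes the cell cycle inhibitor p27, was at 5.97, 6.35 and 6.62 CPM against 19.9, 16.2, 15.4 and 14.5 CPM. It was the lowest p of the list after Vcam1 (-1.39 ± 0.34, edgeR adjusted p = 0.136) and passed in the fit of the 7 CD34Hi libraries alone (adjusted p = 0.0236). Col5a1, a collagen V chain that satellite cells lay down for their own niche, was at 225 to 246 CPM against 328 to 334 CPM (adjusted p = 0.463, edgeR).

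The 3 FoxO factors named in the series were measured at low to moderate counts and did not pass the test. Foxo1 was at 22.0 to 27.3 CPM in adult and 24.2 to 32.4 CPM in young libraries (-0.06 ± 0.28, edgeR adjusted p = 0.997). Foxo3 was at 1.28 to 2.78 against 1.64 to 4.23 CPM and Foxo4 at 0.214 to 1.27 against 0.405 to 1.90 CPM. At so few reads only a wide change could have been seen. Among 32 FoxO target genes none passed the test, and the median was -0.36. Without overlap 12 were lower and 0 higher, beside 8.07% and 6.96% of all genes tested. Cat, which encodes catalase, was at 15.4 to 20.8 against 29.5 to 36.8 CPM (-0.86 ± 0.22, edgeR adjusted p = 0.167). Pik3ip1, an inhibitor of PI3K, was at 2.78 to 4.58 against 3.29 to 12.6 CPM (adjusted p = 0.338, edgeR). Cdkn1b stands in this list as well. In the fit of the 7 libraries alone 3 of the 32 passed, all lower (Cdkn1a, Cdkn1b and Pdk4). Over all genes tested in that fit 1.1% fell and 0.565% rose.

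**Figure D2:**
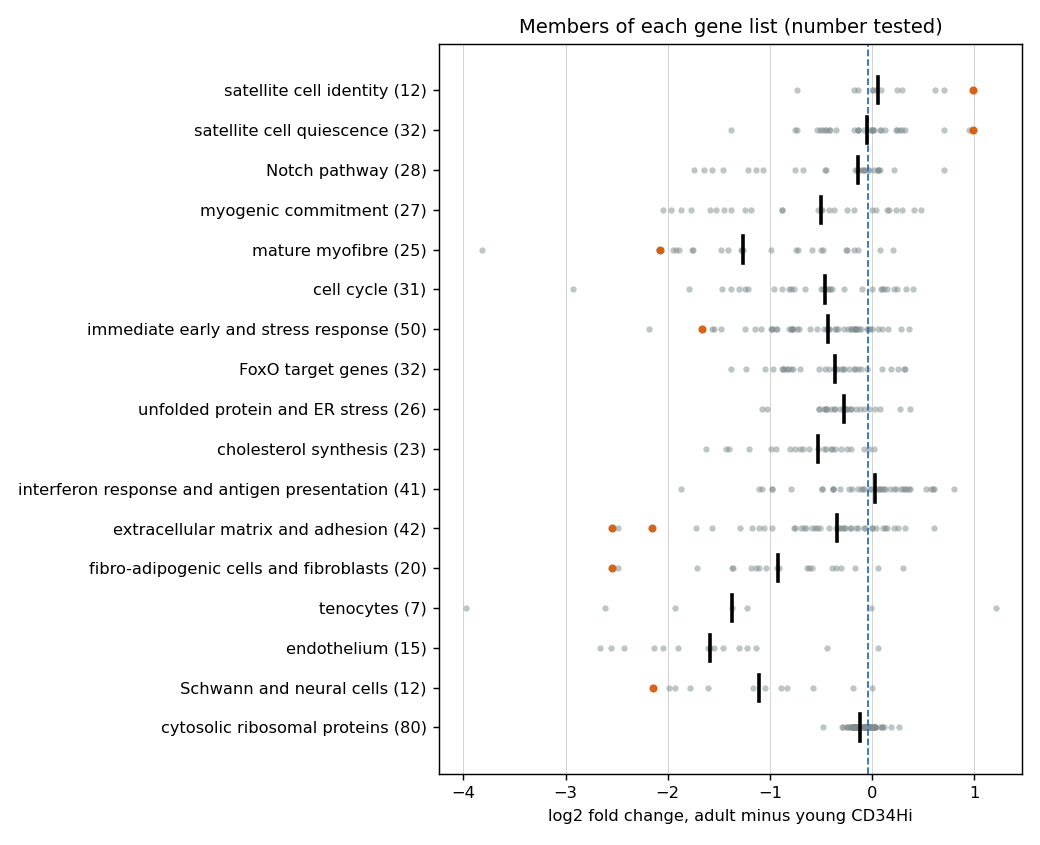
Log2 fold change of each tested member of 17 gene lists, adult minus young CD34Hi. Orange points passed the test, grey points did not, black bars are list medians and the dashed line is the median of all genes tested (-0.04). The identity and quiescence lists centre on the dashed line, while the lists of other cell types and of the mature fibre lie to its left.

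The stress and immediate early list holds genes that switch on within minutes in response to stimuli, among them tissue dissociation, and heat shock chaperones. Of its 50 genes tested, 1 (Dnajb1) fell past the test, beside 0.109% of all genes, and the median was -0.43. Without overlap 24 were lower and 1 higher, beside 8.07% and 6.96% of all genes tested. The summed level of the list was 32577 to 38979 CPM in adult and 42079 to 43753 CPM in young libraries. In the fit of the 7 CD34Hi libraries alone 10 fell and none rose (Atf3, Btg2, Dnajb1, Gadd45g, Hspa1b, Hspb1, Hsph1, Klf6, Socs3 and Zfp36). Over all genes tested in that fit 1.1% fell and 0.565% rose. Without young replicate 1 the list had 28 lower and 2 higher without overlap, where 13.2% and 13.1% of all genes were lower and higher.

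Dnajb1, the co-chaperone that works with HSP70, was at 185, 159 and 128 CPM in adult and 511, 501, 378 and 611 CPM in young libraries (-1.67 ± 0.26, edgeR adjusted p = 0.01). Its partners Hspa1b (787, 481 and 216 against 1364, 1334, 1131 and 1975 CPM) and Hspa1a (417, 243 and 97.9 against 683, 644, 573 and 925 CPM) had changes of -1.55 ± 0.37 and -1.48 ± 0.37. Both missed the threshold (edgeR adjusted p = 0.129 and 0.141), and since they are near-identical neighbours their reads cannot be told apart with certainty. In both, adult replicate 3 was the lowest of the 7 libraries. Hspb1, the small heat shock protein HSP27, was at 423, 327 and 149 CPM against 1262, 2172, 1116 and 890 CPM (-2.18 ± 0.61, adjusted p = 0.205, edgeR). Hspa8, the constitutive member of the HSP70 family, was the 1 gene of the list higher without overlap, at 6504, 5995 and 6454 against 4997, 4911, 5053 and 5758 CPM.

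Egr3, an immediate early zinc finger factor, was at 5.83, 9.84 and 6.62 CPM against 17.1, 18.9, 16.4 and 13.5 CPM (-1.15 ± 0.27, adjusted p = 0.121, edgeR). Fos, the AP-1 subunit, was at 957 to 1119 against 1352 to 2384 CPM, without overlap. Jun overlapped, at 111 to 195 against 163 to 484 CPM, and Egr1 too, at 2344 to 3662 against 2962 to 4974 CPM. In the promoter windows of this list, matched for 38 genes, the cyclic AMP response element stood in 4 (10.5%: Btg2, Dusp1, Maff and Ppp1r15a), beside 3.58% of all windows. The AP-1 motif stood in 1 of the 38.

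**Figure D3:**
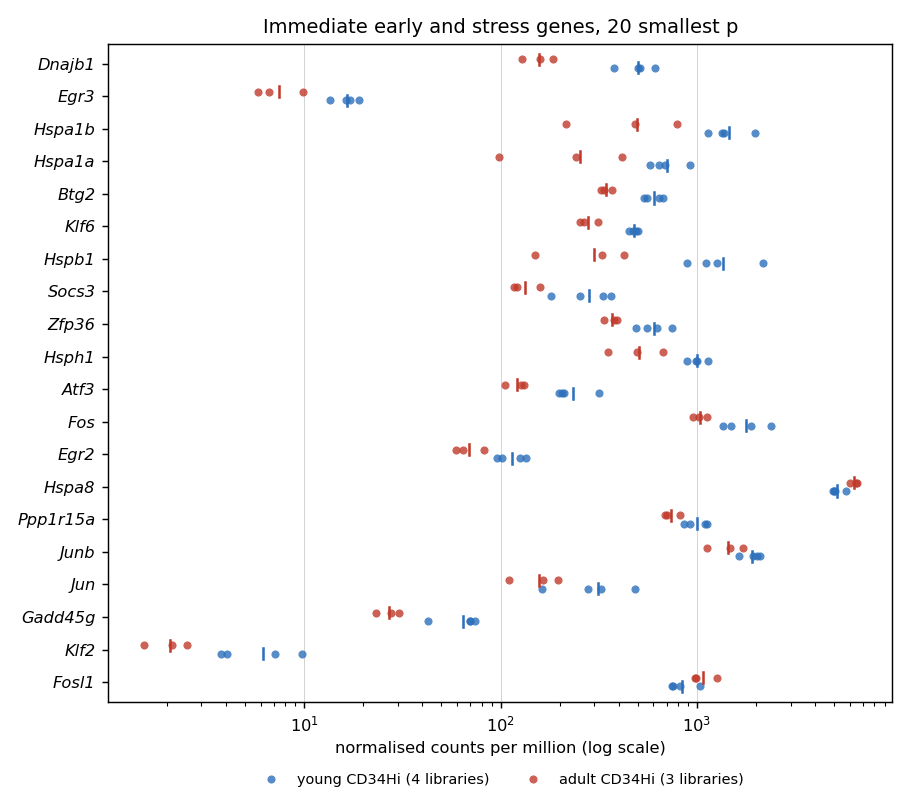
Level of the 20 immediate early and stress genes with the smallest p in each CD34Hi library, in order of p. The horizontal axis is normalised CPM on a log scale, points are libraries (red adult, blue young) and vertical bars are group means. Nearly all lie to the left in adult cells, and Hspa8 and Fosl1 lie to the right.

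Of the 14 lower genes, several encode signalling proteins. Sphk1, which makes the signalling lipid sphingosine 1-phosphate, was at 16.2, 16.5 and 12.6 CPM in adult and 52.6, 55, 42.1 and 56.0 CPM in young libraries. Its fall of 1.76 on the log2 scale (SE 0.25) was the lowest p among the lower genes (edgeR adjusted p = 0.00549), and its gene lies on chromosome 11 at 116530925 to 116536674 on the plus strand. The second kinase Sphk2 stayed at 21.6 to 31.8 against 20.1 to 33.5 CPM. The receptor S1pr1 was at 34.9, 59.9 and 49.4 against 74.7, 116, 140 and 159 CPM, without overlap but not past the test (-1.35 ± 0.36, adjusted p = 0.194, edgeR). S1pr1 is also an endothelial gene. Sphk1 was the 1 gene past the test among 9 tested in this group of 11, chosen after the values were seen.

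Igf1, the growth factor, was at 32.1, 24.6 and 16.9 CPM against 66.5, 59.3, 58.0 and 56.9 CPM (-1.29 ± 0.25, edgeR adjusted p = 0.0405). It was the 1 member past the test among 35 of the IGF, PI3K and Akt list, whose median was -0.12. Its receptor Igf1r lay at 17.8 to 25.6 against 18.5 to 32.7 CPM. The binding protein Igfbp5 was at 294, 296 and 315 CPM against 168, 242, 179 and 195 CPM (0.62 ± 0.25, adjusted p = 0.466, edgeR) and Igfbp7 at 5.97 to 9.37 against 19.2 to 25.4 CPM (adjusted p = 0.532, edgeR). All 7 omissions took the call of Igf1 away, with adjusted p up to 0.309.

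Tsc22d3, the glucocorticoid-induced leucine zipper, was at 42.6, 48.1 and 47.7 CPM against 119, 116, 156 and 107 CPM (-1.43 ± 0.25, edgeR adjusted p = 0.0209). Jmjd1c, a nuclear protein of the histone demethylase family, was at 86.8, 94.1 and 89.3 against 207, 187, 206 and 184 CPM (-1.12 ± 0.17, adjusted p = 0.0084, edgeR). Bach1, a repressor of haem and oxidative stress genes, was at 36.8, 44.1 and 40.6 against 89.1, 79.5, 83.7 and 75.6 CPM (-1.02 ± 0.20, adjusted p = 0.0405, edgeR). The libraries of each age lay close together in all 3. Hmox1, which Bach1 is known to repress, was at 78.0 to 121 against 115 to 238 CPM, with overlap.

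Tmem173, which encodes STING, the sensor adaptor of the response to DNA in the cytosol, fell by 1.44 on the log2 scale (SE 0.28, edgeR adjusted p = 0.0405; 18.9, 22.5 and 19.9 against 50.6, 45.1, 55.8 and 71.0 CPM). The interferon list of 41 genes had none past the test and a median of 0.02. Without overlap 4 were higher and 3 lower, beside 6.96% and 8.07% of all genes tested. Irf1, the interferon-induced factor, was at 67.5 to 75.9 against 122 to 165 CPM (-0.98 ± 0.25, adjusted p = 0.169), and Gbp2, an interferon-induced GTPase, at 191 to 274 against 146 to 167 CPM (0.60 ± 0.21, adjusted p = 0.374), both by edgeR and in opposite directions.

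Phldb2, a cortical adaptor that binds phosphoinositides, Mgat4a, a Golgi enzyme that branches N-glycans, and the long non-coding transcript 3110039I08Rik fell from low levels. Phldb2 was at 2.92 to 4.60 against 10.6 to 16.8 CPM, Mgat4a at 1.39 to 2.35 against 5.40 to 13 CPM and 3110039I08Rik at 1.91 to 3.63 against 8.23 to 19.4 CPM. Their log2 changes were -1.68 ± 0.31, -2.53 ± 0.44 and -2.06 ± 0.40, with edgeR adjusted p-values of 0.0355, 0.0203 and 0.0405.

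Another 3 lower genes are also markers of other cells of muscle. Col1a2, a chain of fibrillar collagen I, was at 51.8, 67.5 and 56.2 CPM in adult and 128, 395, 301 and 538 CPM in young libraries (-2.54 ± 0.44, edgeR adjusted p = 0.0203). Postn, the matrix protein periostin, was at 10.6, 28.1 and 20.7 against 53.9, 101, 96.1 and 99.99 CPM (-2.15 ± 0.34, adjusted p = 0.01, edgeR). In both genes young replicate 1 was the lowest young library. Acta1, the actin of mature fibres, was at 16.7, 15.4 and 15.8 against 52.7, 35, 82.7 and 100.2 CPM (-2.08 ± 0.38, adjusted p = 0.0314, edgeR).

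Lists of those cell types had negative medians as well; sums are over all listed genes present in the table. Of 20 fibroblast markers 1 fell past the test (Col1a2), 9 were lower and 0 higher without overlap and the median was -0.92; the summed level was 3689 to 4171 CPM in adult and 4142 to 8188 CPM in young libraries. Of 15 endothelial markers none passed, 8 were lower and 0 higher without overlap and the median was -1.59; the sum was 362 to 485 against 585 to 1538 CPM. The 12 Schwann and neural markers tested had a median of -1.11 and a sum of 562 to 602 against 681 to 881 CPM. Of 7 tenocyte markers none passed, 1 was lower and 1 higher without overlap and the median was -1.37. Their sum was 102 to 263 against 185 to 590 CPM. The summed level of the mature fibre list was 1413 to 1773 against 1921 to 2176 CPM; among its 25 genes tested Acta1 fell, 11 were lower and 0 higher without overlap and the median was -1.26. Beside the counts of these lists, 0.109% of all genes tested fell past the test. Without overlap 8.07% of all genes were lower and 6.96% higher. Immune markers did not separate the ages, at 53.3 to 69.0 against 42.1 to 105 CPM. In RNA of bulk sorts fewer cells of a type and less RNA per cell cannot be told apart, and the part of such cells in the fall of Col1a2, Postn and Acta1 was not tested.

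The sort removed cells bearing CD31 and Sca-1, and RNA of both was nonetheless counted. Pecam1, which encodes CD31, was at 19.2, 31.3 and 30.1 CPM in adult and 29.7, 47.2, 84.4 and 162 CPM in young libraries. Robo4, an endothelial receptor, was at 4.58, 2.54 and 4.27 against 16.9, 17.3, 23.4 and 39.0 CPM (-2.66 ± 0.57, edgeR adjusted p = 0.0728). Ptprb, the endothelial phosphatase, was at 8.33 to 11.7 against 21.2 to 92.8 CPM (-2.43 ± 0.54, adjusted p = 0.0864, edgeR). Both passed in the fit of the 7 CD34Hi libraries alone (adjusted p = 0.00627 and 0.018). In that fit 6 of 15 endothelial (Cldn5, Emcn, Fabp4, Flt1, Ptprb and Robo4) and 4 of 20 fibroblast genes (Col1a1, Col1a2, Col3a1 and Ly6c1) fell. So did 4 of 23 mature fibre and 6 of 42 matrix genes, and none of these lists had a gene that rose. Over all genes tested in that fit 1.1% fell and 0.565% rose. Young replicate 1 was the lowest young library in most of these lists. Without it 13 of 15 endothelial, 14 of 20 fibroblast and 22 of 42 matrix genes were lower in adult without overlap. Over all genes tested that share was 13.2%. With all 4 young libraries the matrix list had a median of -0.34, with Col1a2 and Postn past the test. Without overlap 10 of its genes were then lower and 1 higher, beside 8.07% and 6.96% of all genes tested. Pdgfra, a defining receptor of fibro-adipogenic cells, was at 8.75, 9.05 and 9.19 CPM in adult libraries and at 0, 3.24, 7.78 and 24.2 CPM in young libraries.

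**Figure D4:**
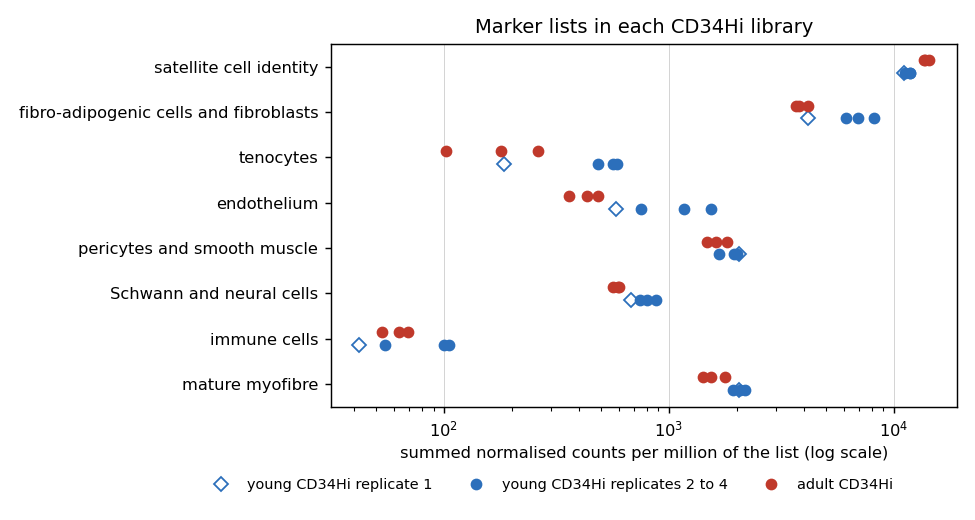
Summed level of each marker list in each CD34Hi library. The horizontal axis is the summed normalised CPM of the list's members on a log scale, with adult libraries in red, young replicates 2 to 4 in blue and young replicate 1 as an open diamond. Endothelial sums lie at 362 to 485 in adult and 585 to 1538 in young libraries. Satellite cell identity sums lie higher in adult libraries and include Vcam1, the 1 member past the test. Vcam1 was at 5592 to 5990 CPM in adult and 2717 to 3101 CPM in young libraries. Sdc4 of the same list was lower, at 3416 to 3733 against 3758 to 4505 CPM. The sum is thus no measure of the list as a whole.

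No gene of cholesterol synthesis or of the unfolded protein response passed the test. All but 1 of 23 genes of cholesterol synthesis and uptake had a negative log2 change. Their median was -0.53, against -0.04 over all genes tested. Without overlap 10 were lower and 0 higher, beside 8.07% and 6.96% of all genes tested. Msmo1, a sterol demethylating oxidase, was at 36.7, 42.5 and 41.2 CPM in adult and 106, 105, 93.1 and 118 CPM in young libraries (-1.40 ± 0.29, edgeR adjusted p = 0.0628). Fdps, which makes farnesyl diphosphate, was at 38 to 52.3 against 78.7 to 115 CPM and Sc5d, the sterol desaturase, at 31.4 to 59.6 against 71.3 to 82.8 CPM. Srebf2, the factor that drives this pathway, was at 271 to 325 against 249 to 332 CPM. In the fit of the 7 libraries alone Fdps, Lss and Msmo1 passed, all lower, where 1.1% of all genes tested fell. Among 26 genes of the unfolded protein response none passed (median -0.27). Of these, 10 were lower and 1 higher without overlap, beside the same 8.07% and 6.96% of all genes. Hsp90b1, a chaperone of the endoplasmic reticulum, was at 1080 to 1232 against 1524 to 1696 CPM (-0.46 ± 0.15, adjusted p = 0.312, edgeR).

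Genes of myogenic commitment and of the cell cycle had medians of -0.50 (27 tested) and -0.47 (31 tested), with none past the test in either list. Without adult replicate 1 the first of these was -0.92. Both lists hold members of few reads, such as Ccnb1 of the cell cycle list (0 to 0.972 against 0.759 to 6.76 CPM). In the fit of the 7 CD34Hi libraries alone Cdkn1a, Mef2c, Myl1 and Tnnc2 of the commitment list fell. Over all genes tested in that fit 1.1% fell. Of the cell cycle list only Cdkn1a and Cdkn1b fell there, both inhibitors of the cycle. Mef2c, a factor of muscle differentiation, was at 2.64, 2.70 and 2.14 CPM against 5.18, 11.2, 11.6 and 11.4 CPM (-1.97 ± 0.43, edgeR adjusted p = 0.0837). Rrm2, a subunit of ribonucleotide reductase, was at 21.7 to 24.9 against 25.4 to 49.8 CPM. Myog, the differentiation factor, was at 0 to 0.214 and 0 to 1.33 CPM, too few reads to compare. In the Notch list of 28 genes none passed and the median was -0.14. Without overlap 0 were higher and 3 lower, beside 6.96% and 8.07% of all genes tested. The ligand Dll1 was at 6.2 to 11.4 against 12.6 to 29.1 CPM (adjusted p = 0.43, edgeR).

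The JAK-STAT and p38, FGF and ERK, TGF-beta and BMP, and Wnt lists had no member past the test. Socs2 and Socs3, feedback inhibitors of JAK-STAT signalling, were at 21.2 to 33.7 against 56.9 to 74.1 CPM and at 117 to 159 against 180 to 365 CPM (edgeR adjusted p = 0.0864 and 0.205). Mapk14, the p38 kinase, was at 12.5 to 15.6 against 22.0 to 37.4 CPM (adjusted p = 0.205, edgeR). All 3 passed in the fit of the 7 libraries alone. Fgfr2, a fibroblast growth factor receptor, was the other way, at 17.9, 21.0 and 18.4 CPM against 3.29, 6.76, 6.06 and 9.33 CPM (1.59 ± 0.39, edgeR adjusted p = 0.136), and passed there too. Bmp4, a bone morphogenetic protein, was at 207, 188 and 213 against 163, 126, 116 and 112 CPM (0.65 ± 0.18, adjusted p = 0.194, edgeR). The senescence list of 23 genes had Plau alone past the test and a median of 0.00. Without overlap 4 of its genes were higher and 3 lower, beside 6.96% and 8.07% of all genes tested. The summed level of the list did not overlap, at 16436.7 to 20436.5 CPM in adult and 10080.3 to 15315 CPM in young libraries. In the fit of the 7 libraries alone Ccl7, Cxcl1 and Plau rose, and Cdkn1a and Igfbp7 fell. With young replicate 1 left out, 30.4% of the list was higher and 17.4% lower without overlap, beside 13.1% and 13.2% of all genes tested. Of 80 ribosomal protein genes none passed and none was without overlap. Their median of -0.12 turned to 0.17 when young replicate 1 was left out, and that of 78 genes of oxidative phosphorylation went from -0.06 to 0.17.

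The age difference was next set beside that in CD34Lo cells of the same experiment, with 4 adult and 4 young libraries. The labels do not say whether CD34Hi and CD34Lo libraries of an age come from the same mice, so the gates may not be independent. There 164 genes (1.28%) were higher and 45 (0.35%) lower in adult cells. Of the 27 genes, 26 had the same sign in CD34Lo cells, where 55.6% of all genes tested did, and 14 passed the test there in the same direction. Dio2 rose in both gates (2.58 in CD34Hi and 2.07 in CD34Lo, CD34Lo adjusted p = 0.000836), and so did Myo1d, Lbp, Elovl4, Spock3, Plau and Tshr, all by edgeR. Sphk1, Jmjd1c, Dnajb1, Postn, Igf1 and Acta1 fell in both. The exception in sign was Mgat4a, at 4.31 to 11.1 CPM in adult and 5.79 to 8.42 CPM in young CD34Lo libraries.

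The difference between the gates was tested as an interaction, which 1 gene (0.00778%) passed with a more positive and 61 genes (0.474%) with a more negative change in CD34Hi cells. The 1 gene was Cyp26a1. In CD34Lo cells it was at 224, 182, 214 and 154 CPM in adult and 92.3, 109, 143 and 129 CPM in young libraries, a change of 0.71 (edgeR adjusted p = 0.0818). The change in CD34Hi cells was more positive by 1.74 ± 0.28 (edgeR adjusted p = 0.00654). Adult CD34Hi libraries were all above adult CD34Lo libraries, and young CD34Hi libraries all below young CD34Lo libraries. Mgat4a was the other of the 27 to pass (-2.68, edgeR adjusted p = 0.0398).

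The 5 genes with the smallest p among the 61 (Msln, Fmo2, Anxa8, Cfb and Bace2) did not pass the test in CD34Hi cells and rose in CD34Lo cells. Msln, the surface protein mesothelin, averaged 61.3 CPM in adult and 90.7 CPM in young CD34Hi libraries, and 527 against 97.7 CPM in CD34Lo libraries. Cfb, complement factor B, averaged 91.8 and 87.6 CPM in CD34Hi and 930 and 129 CPM in CD34Lo libraries. Fmo2, a flavin monooxygenase, had log2 changes of -0.77 in CD34Hi and 2.27 in CD34Lo cells. The annexin Anxa8 had -1.20 and 3.37 and the protease Bace2 -1.05 and 1.77. Of the 20 fibroblast markers tested, 2 were among the 61 (Dpp4 and Clec3b). Col1a2 of that list changed by -0.35 in CD34Lo cells (edgeR adjusted p = 0.739). The keratin genes Krt7, Krt8, Krt14 and Krt19 and the uroplakin genes Upk1b and Upk3b were among the 61 as well. Dpp4 averaged 168 CPM in adult and 30.7 CPM in young CD34Lo libraries. More cells of a type and more RNA per cell cannot be told apart here, and the part of other cells was not tested.

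**Figure D5:**
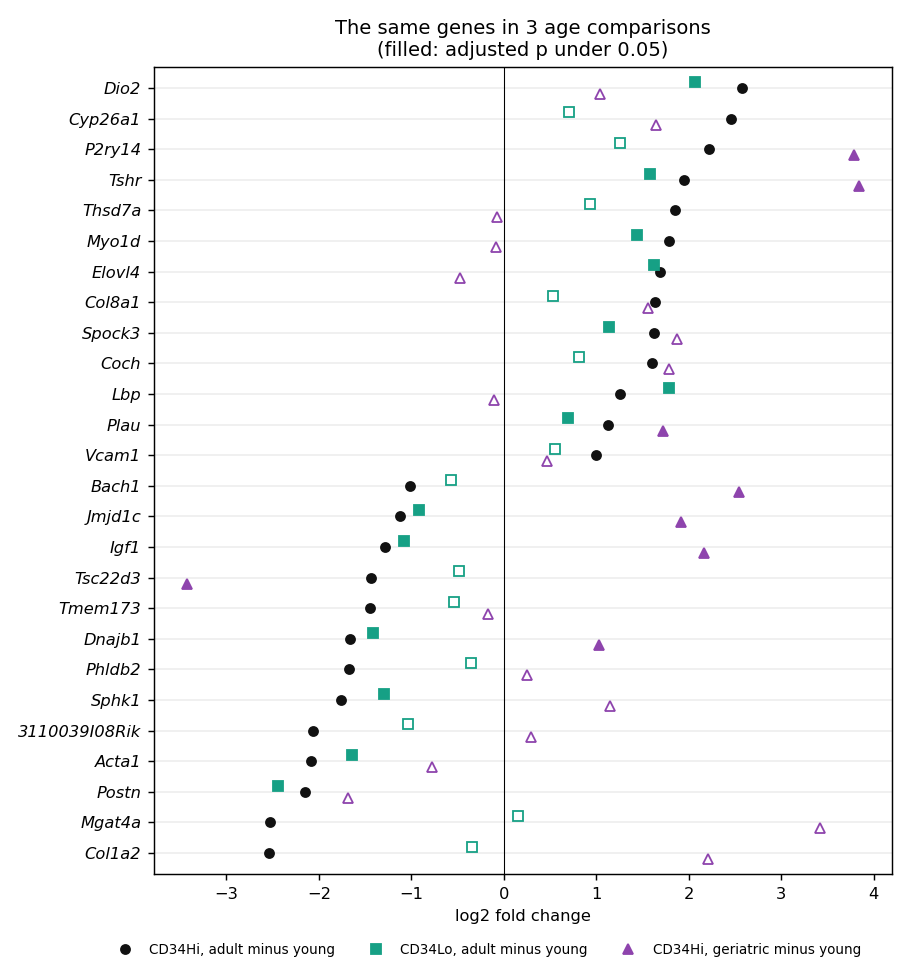
Log2 fold change of genes past the test in 3 age comparisons: adult minus young CD34Hi (black circles), adult minus young CD34Lo (green squares) and geriatric minus young CD34Hi (purple triangles). Filled symbols passed the test. Green squares lie on the same side of 0 as black circles for every gene shown but Mgat4a, while purple triangles are on either side, for example opposite for Igf1 and Bach1.

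CD34Hi cells of geriatric WT mice were set against young ones in experiment 1, a separate table with 4 libraries of each age and its own young libraries. There 1629 of 12163 genes (13.4%) were higher and 1229 (10.1%) lower. All 27 genes were tested, 13 had the same sign as in adult cells, and 4 passed in the same direction. Those were Plau (1.72 ± 0.53, adjusted p = 0.0258), P2ry14 (3.79 ± 0.95, adjusted p = 0.00917), Tshr (3.84 ± 1.29, adjusted p = 0.0393) and Tsc22d3 (-3.42 ± 0.87, adjusted p = 0.0101), all by edgeR. P2ry14 was spread widely in geriatric libraries, at 7.34, 65.7, 310 and 444 CPM against 6.65, 21.0, 15.5 and 16.3 CPM in young ones.

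Another 4 passed in the opposite direction. Jmjd1c was at 929, 626, 183 and 306 CPM in geriatric and 155, 117, 145 and 127 CPM in young libraries (1.91 ± 0.39, edgeR adjusted p = 0.0029). Igf1 was at 85, 92.9, 66.0 and 40.6 against 14.7, 18.2, 8.98 and 21.7 CPM (2.16 ± 0.47, adjusted p = 0.00393, edgeR). Bach1 (2.55 ± 0.54) and Dnajb1 (1.03 ± 0.33) were higher in geriatric cells too, with edgeR adjusted p-values of 0.00344 and 0.0341. So these genes were lower in adult and higher in geriatric cells, each against the young cells of its own experiment.

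A joint fit of both experiments tested whether the change to adult and the change to geriatric age differ. It called 855 of 13983 genes (6.11%) more positive and 1014 (7.25%) more negative for adult age, and 10 of the 27 genes were among them. Sphk1 (difference -2.90 ± 0.48), Jmjd1c (-3.02 ± 0.46), Dnajb1 (-2.68 ± 0.45), Bach1 (-3.56 ± 0.62) and Igf1 (-3.44 ± 0.57) had edgeR adjusted p-values of 0.000282 to 0.000714. Col1a2, Mgat4a and 3110039I08Rik were more negative and Myo1d and Elovl4 more positive for adult age. Col1a2 had few reads in experiment 1, at 0 to 8.55 CPM in geriatric and 0 to 1.43 CPM in young libraries. The same held for Mgat4a, at 0.971 to 8.74 against 0 to 0.93 CPM. Neither passed between geriatric and young cells (edgeR adjusted p = 0.163 and 0.0692). For Cyp26a1 the change to geriatric age was 1.64 ± 0.99 (edgeR adjusted p = 0.239) and the difference of 0.82 ± 1.03 was not past the test (adjusted p = 0.629, edgeR). The experiments differ in table, library set and depth, which this difference cannot be told apart from.

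The genes with the smallest p in that joint test did not pass between adult and young cells. Poldip2, Slc29a1, Pisd, Slc25a47 and Nsfl1c were more positive for adult age by 2.44 to 8.30 on the log2 scale. Their adult changes lay between 0.08 and 0.56 and none passed the test, while geriatric changes lay between -8.44 and -2.20. Emp1, Thbs1, Sdpr, Tln2 and Arid5b were more negative by 1.99 to 6.19, with adult changes of -0.98 to -0.05, none past the test, and geriatric changes of 1.53 to 5.22. Emp1, an epithelial membrane protein, had an adult change of -0.05 and Thbs1, the matrix protein thrombospondin 1, of -0.98.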

How the data were processed

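Raw read counts per gene symbol were deposited, with 24421 symbols in the table used, per the file headers. Tools listed in the submitters' processing notes are TopHat2 2.1.1, HTSeq, Trim Galore, bcl2fastq 2.17.1 and Partek 7.0, with the build mm10. The annotation and the strand setting of the counting are not given in these sources. Libraries were made with SMART-Seq v4 and Nextera XT, per the labels' protocols.

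All 15 libraries of experiment 2 were fitted together in R 4.3.3 with edgeR 4.0.16: filterByExpr (minimum count 10, minimum total 15), TMM scaling, and the quasi-likelihood test with Benjamini-Hochberg adjustment at 0.05. The joint test with experiment 1 used 31 libraries. Alternatives used DESeq2 1.42.0, limma 3.58.1, other scalings, no filter, fewer libraries and a replicate block. The fit was also run on simulated counts in which no library stood apart. That run cannot show how the fit behaves with libraries such as young CD34Hi replicate 1 or young CD34Lo replicate 4. Named are the genes past the threshold, satellite cell and FoxO genes, the 3 smallest p of a list and the 5 smallest p each way in the other tests; the remaining names were picked with their values known. The members and lists were chosen with earlier results of these data known, so lists carry counts and medians without a test. Gene positions are from GENCODE M21 (mm10) and promoters from RefSeq (GRCm38.p6). Of the 27 genes past the threshold, 1 is not reported here by name, and counts include it.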

Additional observations from a re-analysis of the deposited data

Results flagged for a closer look

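In 3 of 61 groups of values a library of the young CD34Hi group lay far from the other 3; chance alone flags about 1 in 20 such groups. Cyp26a1 was at 48.95 CPM in young replicate 4, below the others. Postn was at 53.86 CPM in young replicate 1, below the others. The summed red blood cell markers were at 2.857 CPM in young replicate 4, above the others.

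The age difference in CD34Hi cells differed from that in CD34Lo cells by edgeR's interaction test for 7 named genes. The log2 difference was 1.744 for Cyp26a1 and -2.676 for Mgat4a. It was -2.998 for Msln, -3.036 for Fmo2, -4.566 for Anxa8, -2.778 for Cfb and -2.817 for Bace2.

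The change to adult age differed from the change to geriatric age, each against the young libraries of its own experiment, for 10 of the 27 genes. The log2 difference was 1.876 for Myo1d and 2.169 for Elovl4. It was -2.902 for Sphk1, -3.024 for Jmjd1c, -2.685 for Dnajb1, -3.556 for Bach1 and -3.441 for Igf1. It was -4.69 for Col1a2, -5.92 for Mgat4a and -2.34 for 3110039I08Rik. Experiment and age cannot be told apart in these values. For Col1a2 and Mgat4a they also rest on few reads, at 0 to 1.43 and 0 to 0.93 CPM in young libraries of experiment 1.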

How the results depend on the processing

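Beside the 27 genes called between adult and young CD34Hi cells, DESeq2 called 197, limma voom with quality weights 654 and the 7 CD34Hi libraries alone 200; without young replicate 1 in that last fit, added after seeing the data, it was 866. All 27 were among the genes of DESeq2, voom and the 7-library fit. Leaving out single libraries gave 4 (without adult CD34Hi replicate 3) to 183 (without young CD34Lo replicate 4). The interaction count of 62 became 194 with DESeq2 and 234 with voom, and 26 to 146 with single libraries left out. The 1869 genes of the joint test became 1017 to 2468 with single libraries left out. The causes were not tested. Small changes that did not pass the test turned sign: Myf5 to -0.01626 with total-count scaling and -0.08268 with the replicate block (-0.155 to 0.2092 over omissions), Myod1 to -0.002378 and -0.04444 (-0.08483 to 0.1346), Foxo1 to 0.0105 with the block (-0.1135 to 0.04747) and Foxo3 over omissions (-0.475 to 0.04073). The replicate block gave 23 genes (18 of the 27 among them) in place of 27, and the same-numbered adult and young libraries deviated together only weakly (r 0.0377 to 0.0841 in 3 CD34Hi pairs, -0.102 to 0.376 in 4 CD34Lo pairs); not every pair was over 0.1, so the numbers were not used as pairs. Under the block 3110039I08Rik, Bach1, Col8a1, Elovl4, Lbp, Mgat4a, Thsd7a, Tshr and Vcam1 missed the threshold (edgeR adjusted p = 0.0519 to 0.0657). Depth limits genes of few reads such as Foxo4 and Myog.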
